A study of Homo sapiens with 9 samples.

Results

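PTCHD1, LONRF2 and TCEAL7 are 3 protein-coding genes that stood high in simvastatin-treated neuroblastoma cells and low again when mevalonate was added. They were chosen by name, with earlier results of these data known, because those 2 changes were large and because the genes lie outside the pathways usually followed with statins. Their own differences between simvastatin and the other groups therefore describe the choice and are given with no test. All 3 were measured, by 4 of the 16098 probesets with a gene symbol, out of 14884 named genes in all. A probeset is a group of array probes read together. PTCHD1 had 2 probesets, and LONRF2 and TCEAL7 had 1 each. PTCHD1 and TCEAL7 lie on chromosome X and LONRF2 on chromosome 2.

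The cells were SMS-KCNR, an established line of human neuroblastoma, a tumour of the sympathetic nervous lineage. Total RNA was read on 9 one-channel Affymetrix whole-transcript arrays, 3 per group. All cells were collected after 30 hours with the solvent DMSO, with 5 µM simvastatin, or with 5 µM simvastatin plus 2 mM mevalonate, in medium with 10% serum. The line is a single model, and the sources used here do not say whether the independent samples of a group were cultures of different days. The p-values below therefore measure the spread between the deposited values of these samples, which may be partly technical. Of all probesets 52.1% had an identical value on at least 2 arrays, within a group or across groups. Identical values within a group lower its SD, and their part in the p-values was not tested.

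Simvastatin blocks HMG-CoA reductase, the enzyme that makes mevalonate, and mevalonate added to the medium supplies the pathway below the block. PTCHD1 encodes a membrane protein related to the Hedgehog receptor Patched and carries a sterol-sensing domain. It is expressed in the brain, and its loss causes an X-linked form of intellectual disability and autism. LONRF2 encodes a ubiquitin ligase with a RING finger and a Lon domain, expressed in neurons and linked to the removal of misfolded proteins. TCEAL7 belongs to a group of small nuclear proteins related to transcription elongation factor A, whose genes are clustered on the long arm of chromosome X beside the BEX genes. It is known for holding back NF-kappaB and MYC activity and for its silencing in ovarian cancer.

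The arrays and the cells were checked first. Values were on the log2 scale, with array medians of 5.17 to 5.21, and arrays of the same group correlated at r = 0.994 to 0.996 across genes, which are not independent replicates. Of 10 markers of noradrenergic neuroblastoma cells 9 were measured, and their mean per array was 9.91 to 9.94 with DMSO, 9.53 to 9.56 with simvastatin and 9.82 to 9.88 with mevalonate added. None of the 9 had a mean below the median of all probesets, 5.19. With simvastatin 6 of the 9 fell, against 7.38% of all genes (limma, adjusted p under 0.05). With mevalonate 5 of the 9 rose, against 5.31% of all genes. In bulk RNA, fewer cells of a type and less RNA per cell cannot be told apart. Markers of other cells were measured too. Means per array were 5.37 to 5.66 for 3 Schwann and glial genes, of which 0 changed in any comparison (1 at an unadjusted p under 0.05), and 4.98 to 5.26 for 5 blood and endothelial genes. Among the latter only CD68, which encodes a lysosomal protein, rose with simvastatin. Of 3 mesenchymal genes FN1, the fibronectin gene, fell. The part of these shifts in the results below was not tested.

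PTCHD1 showed the widest swing of the 3 genes, but by only 1 of its 2 probesets. The brighter probeset read 5.56, 5.38 and 5.41 on the DMSO arrays, 7.09, 6.84 and 7.04 on the simvastatin arrays, and 5.63, 5.28 and 5.10 on the arrays with mevalonate. The simvastatin arrays were all higher than the other 6, which overlapped each other. The group means were 5.45 ± 0.10 (SD, n = 3) with DMSO, 6.99 ± 0.13 with simvastatin and 5.34 ± 0.27 with mevalonate added. Simvastatin minus DMSO was 1.54 ± 0.13 (limma's standard error, SE) on the log2 scale, a 2.90-fold difference. Among all genes this ranked 4 of 14884 from the top, and the difference of -1.65 ± 0.13 with mevalonate ranked 3 from the bottom.

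The dimmer PTCHD1 probeset, annotated to the same transcript, did not separate the groups. It read 5.41, 5.07 and 5.25 with DMSO, 6.06, 5.12 and 5.25 with simvastatin, and 5.35, 4.85 and 5.25 with mevalonate added. Only simvastatin replicate 1 stood above the range of the other 8 arrays. The difference between simvastatin and DMSO was 0.23 ± 0.24 there, and that after mevalonate -0.33 ± 0.24. Values identical on replicate 3 of all groups occur in this probeset, and 52.1% of all probesets had an identical value on at least 2 arrays. With the mean of both probesets the PTCHD1 differences were 0.88 and -0.99. The size of the PTCHD1 change therefore depends on the probeset read. The sources used here do not say which part of the transcript each probeset covers.

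LONRF2 was the most evenly measured of the 3. It read 9.14, 9.07 and 9.12 with DMSO, 10.43, 10.28 and 10.36 with simvastatin, and 9.26, 9.28 and 9.24 with mevalonate added. No group overlapped another, and the order was DMSO, then simvastatin plus mevalonate, then simvastatin. The means were 9.11 ± 0.04 (SD, n = 3), 10.36 ± 0.08 and 9.26 ± 0.02 for DMSO, simvastatin and simvastatin plus mevalonate. The difference with simvastatin was 1.24 ± 0.05 (SE), or 2.37-fold, and ranked 9 of 14884 from the top. With mevalonate the difference from simvastatin alone was -1.09 ± 0.05, rank 15 from the bottom. A difference of 0.15 ± 0.05 from DMSO was left. Its residual SD of 0.05 was larger than that of 18.8% of genes, against 86.8% for PTCHD1 (0.18) and 71.8% for TCEAL7 (0.13).

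TCEAL7 had the smallest simvastatin difference of the 3 and, with mevalonate, a level below that with DMSO. It read 7.55, 7.59 and 7.64 with DMSO, 8.32, 8.31 and 8.43 with simvastatin, and 7.34, 6.99 and 7.39 with mevalonate added. The groups did not overlap, and the mevalonate arrays were the lowest. Means were 7.60 ± 0.04 (SD, n = 3), 8.35 ± 0.07 and 7.24 ± 0.22 in the same order. The difference with simvastatin was 0.76 ± 0.10 (SE), 1.69-fold and rank 55 from the top. That with mevalonate was -1.11 ± 0.10, rank 13 from the bottom, so the level with mevalonate was 0.35 ± 0.10 lower than with DMSO. Replicate 2 lay furthest down, and without it the difference from DMSO was -0.23.

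**Figure D1:**
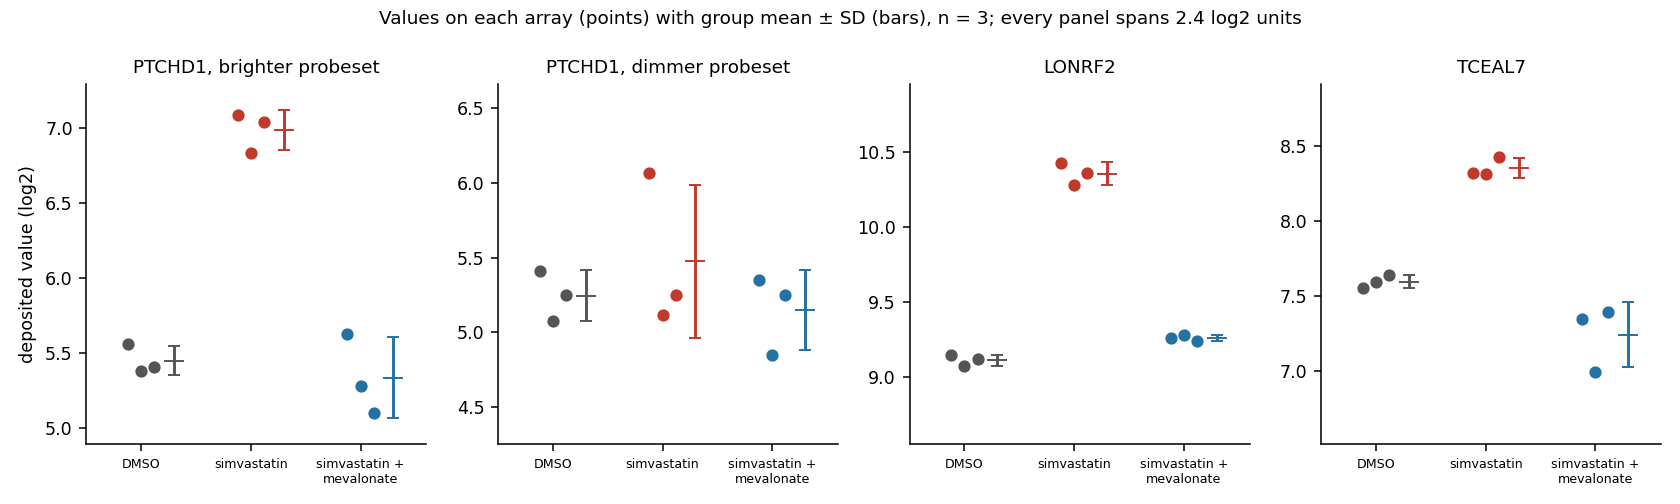
Deposited log2 value (vertical axis) of the 4 probesets of PTCHD1, LONRF2 and TCEAL7 on each array, by treatment group (horizontal axis), with the mean ± SD of 3 arrays as bars. The simvastatin points stand above all others for the brighter PTCHD1 probeset, LONRF2 and TCEAL7, and only 1 of them does so for the dimmer PTCHD1 probeset.

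By their group means, the genes differed in how far mevalonate took them back. The return was taken as the drop with mevalonate over the rise with simvastatin, on the log2 scale. It was 107% for PTCHD1, 88.0% for LONRF2 and 146% for TCEAL7. Measured on single mevalonate arrays against the means of the other groups, it ran from 88.4% to 123% for PTCHD1, from 86.2% to 89.7% for LONRF2 and from 127% to 179% for TCEAL7. The ranges of LONRF2 and TCEAL7 do not overlap, while that of PTCHD1 overlaps the range of LONRF2 and stays below that of TCEAL7. The ranges leave out the error of the DMSO and simvastatin means. That of PTCHD1 is for the brighter probeset, and the dimmer one had a return of 143%, within the TCEAL7 range. Even the brighter one had means of 5.45 with DMSO and 5.34 with mevalonate, near the median of all probesets, 5.19. No test was made, since both changes entered the choice of the genes. Over all genes, the simvastatin and DMSO arrays did not overlap for 28.6% (13.9% higher with simvastatin, 14.7% lower). The mevalonate and simvastatin arrays did not overlap for 27.3% (13.6% higher with mevalonate, 13.7% lower). All 3 genes are among them by choice. Simvastatin plus mevalonate and DMSO did not overlap for 16.5% of genes (7.24% higher, 9.22% lower), LONRF2 higher and TCEAL7 lower among them. The simvastatin arrays enter both comparisons, so the 2 differences of a gene share their chance error.

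**Figure D2:**
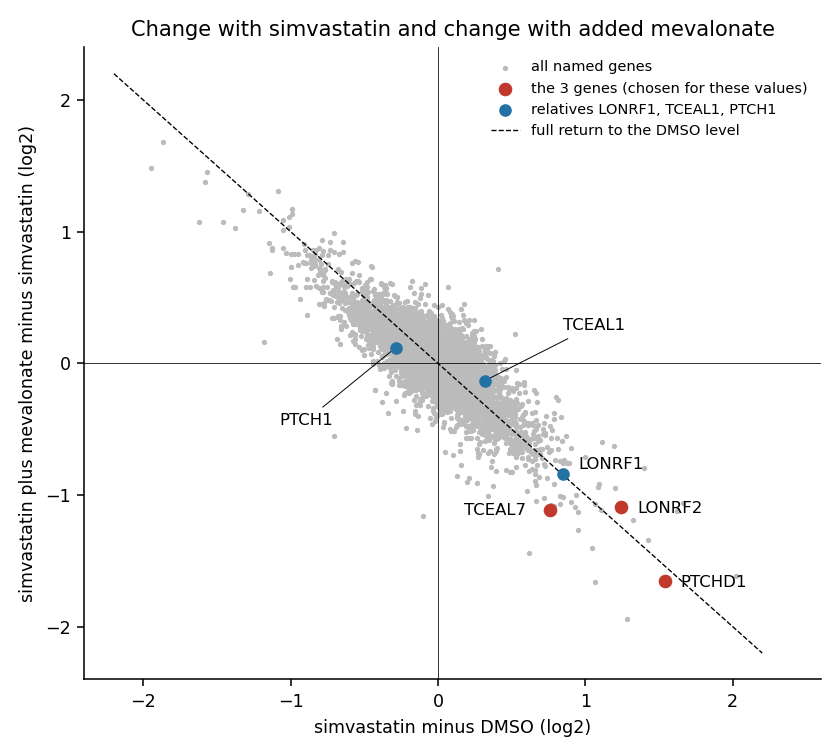
Each grey point is 1 of 14884 genes, with its log2 difference between simvastatin and DMSO on the horizontal axis and between simvastatin plus mevalonate and simvastatin on the vertical axis. The dashed line marks a full return to the DMSO level; PTCHD1 lies near it, LONRF2 above it and TCEAL7 below it, and the relatives LONRF1, TCEAL1 and PTCH1 are in blue.

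The relatives of the 3 genes were not used in the choice of those 3 and were tested. Their lists were, however, drawn up with earlier results of these data known. In the limma fit over all 14884 genes, 13.4% changed with simvastatin (adjusted p under 0.05), 5.98% up and 7.38% down. With mevalonate added to simvastatin 11.0% changed, 5.31% up and 5.72% down. Between simvastatin plus mevalonate and DMSO 0.0739% differed, 0.0336% higher and 0.0403% lower. The counts of relatives and of other gene lists below are read against these shares.

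LONRF1, a relative of LONRF2 and likewise a gene for a RING finger protein with a Lon domain, also stood higher with simvastatin and lower with mevalonate. It read 6.77, 6.80 and 6.77 with DMSO, 7.71, 7.58 and 7.60 with simvastatin, and 6.90, 6.72 and 6.74 with mevalonate added. The simvastatin arrays stood apart, and the other groups overlapped. LONRF1 rose by 0.85 ± 0.06 (1.80-fold, adjusted p = 5.59e-05) and fell by 0.84 ± 0.06 on the log2 scale with mevalonate (adjusted p = 7.64e-05). Simvastatin plus mevalonate differed from DMSO by 0.00 ± 0.06 (adjusted p = 0.995). Both calls were kept under every alternative tried, with adjusted p up to 0.00188.

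The other measured genes of the Lon group did not pass the test. The third family member, LONRF3, differed by 0.10 ± 0.06 with simvastatin (adjusted p = 0.374) and by -0.13 ± 0.06 with mevalonate (adjusted p = 0.250). Its probeset was dim, at 4.74 to 5.08 on all arrays, where a change is poorly determined. CRBN, a ubiquitin ligase receptor with a Lon-like domain, differed by -0.06 ± 0.06 with simvastatin (adjusted p = 0.600). Of 5 genes on this list 3 were measured, so 1 rose with simvastatin and 1 fell with mevalonate, the same gene.

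The promoter of LONRF2 is shown because LONRF2 had the smallest spread of the 3 genes and was the 1 of them with an entry in the RefSeq promoter table used here (GRCh38.p14). It spans 250 bases before to 50 bases after the annotated start, at chr2:100322452-100322751 on the minus strand. Capitals mark a match to any of 6 motifs searched on both strands.

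LONRF2: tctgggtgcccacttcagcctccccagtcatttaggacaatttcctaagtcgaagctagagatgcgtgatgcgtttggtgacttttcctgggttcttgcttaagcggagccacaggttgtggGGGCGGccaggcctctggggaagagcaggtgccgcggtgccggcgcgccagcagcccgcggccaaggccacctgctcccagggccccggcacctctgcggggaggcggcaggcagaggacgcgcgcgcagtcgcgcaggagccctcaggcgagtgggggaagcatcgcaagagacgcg

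The single match was the GC box GGGCGG at position -128, a motif found in 45.0% of all 35116 promoters of this length. The other 5 motifs were absent from these letters. They were the E-box CACGTG (in 7.26% of promoters), TGANTCA of AP-1 (7.71%), TGACG, which is part of the cyclic AMP response element (24.6%), TGATGNAA of ATF4 (3.62%) and TCACNCCAC of the sterol regulatory element (1.13%). TGACG and the E-box can overlap. A match or its absence describes these letters and says nothing of whether a factor acts on LONRF2.

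Among the genes related to TCEAL7, TCEAL1 rose with simvastatin. All 8 other TCEAL genes were measured, and 1 rose and 0 fell with simvastatin, while 0 changed with mevalonate in the limma fit (3 at an unadjusted p under 0.05). TCEAL1 read 5.38, 5.28 and 5.31 with DMSO, 5.66, 5.66 and 5.61 with simvastatin, and 5.55, 5.49 and 5.49 with mevalonate added. No group overlapped another, and the mevalonate arrays lay between the other groups. TCEAL1 rose by 0.32 ± 0.04 (1.25-fold, adjusted p = 0.00168). Its difference with mevalonate was -0.13 ± 0.04 (adjusted p = 0.101), a return of 41.0%. The DMSO mean of TCEAL1, 5.32, was near the median of all probesets, 5.19.

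TCEAL8 differed by 0.09 ± 0.06 with simvastatin (adjusted p = 0.358) and by -0.18 ± 0.06 with mevalonate (adjusted p = 0.0967). TCEAL9, the nearest measured gene on the side of higher coordinates, differed by -0.07 ± 0.05 with simvastatin (adjusted p = 0.450). TCEAL2, TCEAL3, TCEAL4, TCEAL5 and TCEAL6 had adjusted p of 0.517 to 0.987 for simvastatin. Of the 5 BEX genes, which encode small adaptor proteins of neuronal cells, 2 were measured and 0 changed in any comparison (limma; 1 at an unadjusted p under 0.05 with simvastatin). BEX2 differed by 0.26 ± 0.11 with simvastatin (adjusted p = 0.165) and BEX3 by -0.08 ± 0.06 (adjusted p = 0.400). The median simvastatin difference was 0.07 over the 8 TCEAL genes, against 0.01 over all genes.

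Sequence near the starts of the TCEAL and BEX genes was searched for the same motifs. In the RefSeq promoter table all 13 of them had an entry, while TCEAL7 and PTCHD1 had none there. The E-box CACGTG was found in 12 of their 18 promoters (11 of the 13 genes), against 7.26% of all promoters. TGACG was found in 15 of the 18 (12 of the 13 genes), against 24.6%. The motifs were chosen with these sequences in view. Promoters of the same gene can overlap and hold the same site, and related genes can share sequence. The excess over all promoters was therefore not tested. The stretches of TCEAL1, TCEAL8 and TCEAL9 are shown because TCEAL1 rose and the others did not pass the test, with the shared letters given below them. Capitals mark CACGTG and TGACG, and each stretch runs 5′ to 3′ on its gene's strand (GRCh38.p14). They lie at chrX:103628897-103628952 for TCEAL1 (plus strand), chrX:103255153-103255208 for TCEAL8 (minus strand) and chrX:103356447-103356502 for TCEAL9 (plus strand).

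TCEAL1: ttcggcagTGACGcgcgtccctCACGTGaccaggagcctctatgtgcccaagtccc
TCEAL8: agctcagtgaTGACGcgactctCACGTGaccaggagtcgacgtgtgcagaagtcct
TCEAL9: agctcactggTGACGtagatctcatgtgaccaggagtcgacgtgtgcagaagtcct

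Over the whole 300-base promoters of these 3 genes, the longest run of identical letters was 16 bases between TCEAL1 and TCEAL8, ctcacgtgaccaggag, and 31 bases between TCEAL8 and TCEAL9. TCEAL9 reads catgtg where TCEAL1 and TCEAL8 read cacgtg. Its last 11 letters of the shared run are thus unbroken, and its promoter window holds no CACGTG. TCEAL8 holds the E-box as TCEAL1 does, at 0.09 ± 0.06 against 0.32 ± 0.04 with simvastatin; this pair was chosen after its values were seen, and the difference between these changes was not tested. BEX2, with an E-box and 1 match to TGACG, differed by 0.26 with simvastatin. TCEAL5, with an E-box and 2 matches to TGACG, differed by 0.05. Neither passed the test, which does not show that they stayed at their level. A link between these motifs and the changes was not tested.

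PTCHD1 was compared with the Patched and sterol-sensing domain family. Of 11 genes on that list 7 were measured. PTCH1, the receptor that binds Hedgehog proteins, fell with simvastatin, the reverse of PTCHD1. It read 8.04, 8.07 and 8.08 with DMSO, 7.80, 7.72 and 7.80 with simvastatin, and 7.89, 7.90 and 7.89 with mevalonate added. No group overlapped another. The fall was -0.29 ± 0.04 (adjusted p = 0.00178), and the difference with mevalonate was 0.12 ± 0.04 (adjusted p = 0.102), a return of 41.3%.

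DISP3, which encodes a Dispatched-like protein with a sterol-sensing domain, differed by 0.29 ± 0.11 with simvastatin (adjusted p = 0.132) and fell by 0.48 ± 0.11 on the log2 scale with mevalonate (adjusted p = 0.0249). That call was lost without simvastatin replicate 2 (adjusted p = 0.0817) or 3 (0.0763), and without simvastatin plus mevalonate replicate 1 (0.0524) or 3 (0.0594). The remaining 5, PTCHD3, PTCHD4, DISP1, DISP2 and SCAP, the escort of the SREBP factors, did not pass the test with simvastatin (adjusted p = 0.186 to 0.675). PTCHD3 and PTCHD4 were dim, at 3.65 to 3.91 and 3.09 to 3.67 over the arrays, against a median of 5.19 over all probesets. The median difference with simvastatin over the 7 genes was 0.08.

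**Figure D3:**
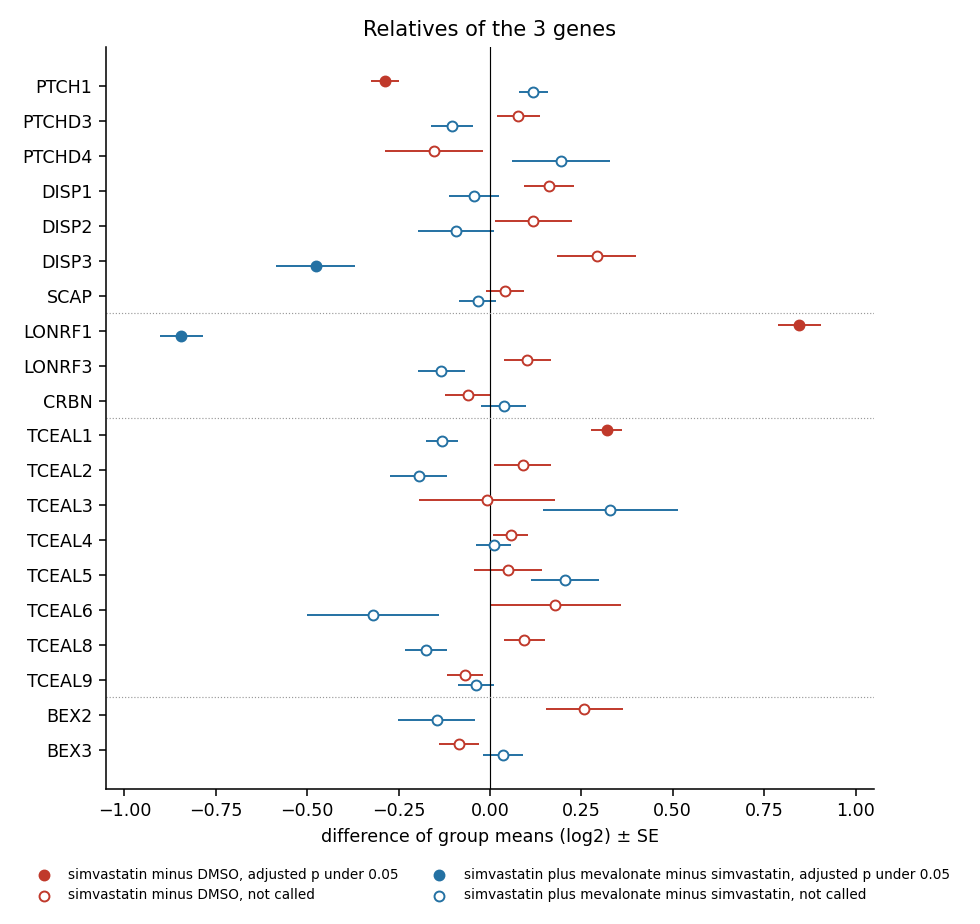
Difference of group means on the log2 scale with its SE (horizontal axis) for the measured relatives of PTCHD1, LONRF2 and TCEAL7 (rows, family by family), for both comparisons. Filled points passed the test; LONRF1 shows the widest pair, at 0.85 and -0.84, and TCEAL1 and PTCH1 passed with simvastatin and not with mevalonate, a difference that was not tested.

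The Hedgehog pathway was taken from a list that also holds PTCH1. Of its 16 measured genes 0 rose and 2 fell with simvastatin, PTCH1 and BOC, a co-receptor for Hedgehog proteins at -0.48 ± 0.11 (adjusted p = 0.0215). BOC missed the threshold when DMSO replicate 1 (adjusted p = 0.0585), DMSO replicate 3 (0.0763) or simvastatin replicate 3 (0.0583) was left out. GLI1, a target and effector of the pathway, differed by 0.01 (adjusted p = 0.956) with dim values of 4.60 to 5.00. With mevalonate 0 of the 16 changed (limma; 3 at an unadjusted p under 0.05).

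PTCHD1 protein is known to bind postsynaptic scaffold proteins, and 11 of 23 genes of postsynaptic scaffolds and adhesion were measured. HOMER2 (0.46 ± 0.07, adjusted p = 0.00307) and HOMER1 (0.20 ± 0.04, adjusted p = 0.0191), which encode scaffold proteins of glutamate receptors, rose with simvastatin. Both fell with mevalonate, HOMER2 by 0.34 ± 0.07 on the log2 scale (adjusted p = 0.0160) and HOMER1 by 0.25 ± 0.04 (adjusted p = 0.00696). The HOMER1 rise missed the threshold with DMSO replicate 1 (adjusted p = 0.0629) or DMSO replicate 3 (0.0619) left out. The HOMER2 fall did so with simvastatin replicate 1 (0.0506) or replicate 1 with mevalonate (0.0596) left out. IL1RAPL1, another X-linked intellectual disability gene, fell by 0.40 ± 0.10 on the log2 scale with simvastatin (adjusted p = 0.0306). It was dim, and the call was lost without DMSO replicate 2 (0.0987) or 3 (0.0988), and without any array with mevalonate (0.0520 to 0.0531). The other 8, SHANK1, SHANK2, HOMER3, NLGN1, NLGN2, NLGN3, NRXN2 and NRXN3, did not pass the test in any comparison.

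Ubiquitin ligases of protein quality control, the class to which LONRF2 is linked, were measured too. Of 12 measured genes 2 rose and 0 fell with simvastatin. ZNF598, which marks colliding ribosomes, rose by 0.36 ± 0.09 (adjusted p = 0.0264), and the very large ligase UBR4 by 0.14 ± 0.04 (adjusted p = 0.0472). ZNF598 missed the threshold when any of 4 arrays was left out, DMSO replicates 1 (adjusted p = 0.0903) and 3 (0.0842) and simvastatin replicates 1 (0.0765) and 2 (0.0755). The UBR4 call was lost without any single array (0.0599 to 0.118) and with arrays centred on their medians (0.0568). With mevalonate UBR2, a ligase of the N-degron pathway, fell by 0.16 ± 0.04 on the log2 scale (adjusted p = 0.0441), a call likewise lost without any single array (0.0510 to 0.129). The list's median simvastatin difference was 0.06, against 0.01 over all genes.

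Genes linked to the known roles of TCEAL7 were taken next. Of 13 measured genes of transcription elongation 0 rose and 1 fell with simvastatin. This was CCNT2, which encodes a cyclin of the elongation kinase P-TEFb, at -0.23 ± 0.04 (adjusted p = 0.00832), and it rose by 0.24 ± 0.04 with mevalonate (adjusted p = 0.00704). NELFB, a subunit of the negative elongation factor, fell by 0.24 ± 0.06 on the log2 scale with mevalonate (adjusted p = 0.0483). Leaving out any array other than simvastatin plus mevalonate replicate 2 took NELFB above the threshold (0.0637 to 0.145).

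Of 8 measured NF-kappaB genes 2 rose with simvastatin and fell with mevalonate, the subunit genes NFKB2 and RELA. NFKB2 differed by 0.26 ± 0.06 (adjusted p = 0.0310) and then by -0.28 ± 0.06 (adjusted p = 0.0251), and RELA by 0.23 ± 0.06 (adjusted p = 0.0382) and -0.25 ± 0.06 (adjusted p = 0.0290). The NFKB2 rise was lost without any DMSO array or without simvastatin replicate 1 or 2 (0.0537 to 0.0965), and its fall with either simvastatin replicate 1, simvastatin replicate 2 or replicate 3 with mevalonate left out (0.0596 to 0.0779). For the RELA rise, leaving out any array other than simvastatin replicate 2 gave an adjusted p above 0.05 (0.0552 to 0.115). Its fall was lost without simvastatin replicate 1 or 3 or any array with mevalonate (0.0547 to 0.0982). The NF-kappaB targets ICAM1 and CXCL8 differed by 0.01 and 0.05 with simvastatin (adjusted p = 0.965 and 0.713). Both were dim, with group means of 5.11 to 5.14 for ICAM1 and array values of 3.29 to 3.56 for CXCL8, where a change is poorly determined. In the comparison of simvastatin plus mevalonate with DMSO, 0 genes of the family, pathway and marker lists above changed (limma; 0 to 2 per list at an unadjusted p under 0.05).

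Neighbours on the chromosome were measured to see whether the 3 genes moved with their surroundings. The 5 nearest measured genes on each side were taken in RefSeq gene order. Over all genes 5.98% rose with simvastatin and 5.72% fell with mevalonate (limma, adjusted p under 0.05). Counts among 10 neighbours are too small to be told from these shares. Around PTCHD1, 1 of 10 neighbours rose with simvastatin and 1 fell with mevalonate, in both cases ACOT9, which encodes a mitochondrial acyl-CoA thioesterase. It read 7.36, 7.29 and 7.41 with DMSO, 7.81, 7.88 and 7.90 with simvastatin, and 7.30, 7.18 and 7.22 with mevalonate added. It rose by 0.51 ± 0.05 (adjusted p = 0.000390) and fell by 0.63 ± 0.05 on the log2 scale (adjusted p = 0.000171), calls kept under every alternative tried. PRDX4, between PTCHD1 and ACOT9, differed by -0.04 with simvastatin (adjusted p = 0.606). PTCHD1-AS, the antisense transcript beside PTCHD1, was dim at 2.93 to 3.48 and differed by 0.19 ± 0.11 (adjusted p = 0.363).

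Around LONRF2, 1 of 10 neighbours rose with simvastatin and 2 fell with mevalonate. LYG1, which encodes a secreted lysozyme-like protein, rose by 0.46 ± 0.07 (adjusted p = 0.00413) and fell by 0.30 ± 0.07 on the log2 scale (adjusted p = 0.0351). NPAS2, which encodes a partner of the circadian factor BMAL1, differed by 0.29 ± 0.09 with simvastatin (adjusted p = 0.0656) and fell by 0.41 ± 0.09 on the log2 scale with mevalonate (adjusted p = 0.0186). The LYG1 fall missed the threshold (0.0561 to 0.115) when any of 5 arrays was left out, replicate 2 of DMSO, replicates 2 and 3 of simvastatin, and replicates 1 and 3 with mevalonate. The NPAS2 fall was lost without simvastatin plus mevalonate replicate 1 (0.0674) or 2 (0.0652). The immediate neighbours measured, EIF5B and CHST10, differed by -0.01 and 0.17 with simvastatin (adjusted p = 0.909 and 0.221). Around TCEAL7, 1 of 10 neighbours rose with simvastatin, TCEAL1, and 0 changed with mevalonate (limma; 2 at an unadjusted p under 0.05).

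**Figure D4:**
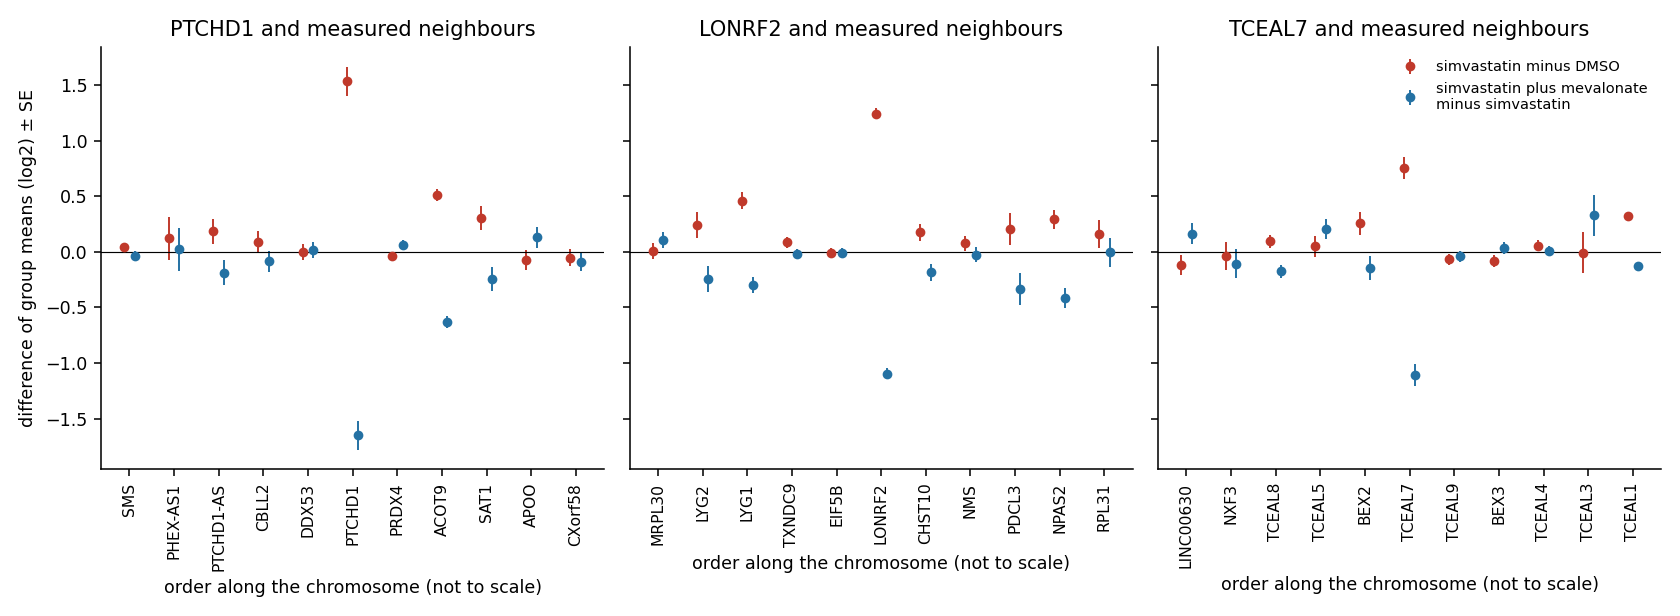
Difference of group means on the log2 scale ± SE (vertical axis) for PTCHD1, LONRF2 and TCEAL7 and the 5 nearest measured genes on each side, in chromosome order (horizontal axis, not to scale). The 3 genes stand out from their neighbours by choice; ACOT9, at 0.51 and -0.63, is the neighbour furthest from 0 in both comparisons.

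The genes whose profile was most like each of the 3 were found by the root mean square (RMS) difference over the 9 arrays, with each gene taken relative to its DMSO mean. This was searched over 13152 genes, and it describes likeness without a test. Closest to PTCHD1 were ACSS2, which makes acetyl-CoA from acetate (RMS difference 0.19), LONRF2 (0.26), the pseudokinase gene TRIB3 (0.31), SESN2, an inhibitor of mTORC1 (0.32), and the neuropeptide precursor gene VGF (0.33). Closest to LONRF2 were VGF (0.10), ZYX, which encodes the focal adhesion protein zyxin (0.10), ACSS2 (0.16), SESN2 (0.16) and EPPK1, a cytoskeletal linker gene (0.20).

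TCEAL7 had a different set. Closest to it were SYT11, which encodes a synaptotagmin of vesicle traffic (RMS difference 0.12), FMN1, an actin-nucleating formin gene (0.14), PRXL2C (0.15), STMN4, a stathmin gene of neuronal microtubules (0.16), and RHOB, a small GTPase gene (0.16). Their returns, from 117% for STMN4 to 157% for SYT11, follow from the search for profiles like that of TCEAL7. SYT11 stood at 10.42 to 10.44 on the mevalonate arrays, lower than its 10.77 to 10.85 with DMSO, and at 11.44 to 11.53 with simvastatin. PTCHD1 and LONRF2 were 0.50 and 0.42 away from TCEAL7.

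Genes of sterol synthesis and its control, the usual response to statins, were measured as a reference. Of 8 measured genes 7 rose with simvastatin and 5 fell with mevalonate, and 1, the early enzyme gene HMGCS1, was higher with simvastatin plus mevalonate than with DMSO (0.60, adjusted p = 0.0129). When any of the 3 DMSO arrays or replicate 1 with mevalonate was left out, 0 of the 8 passed in that comparison (limma). The returns of the 8 ran from 27.6% for MVK to 85.5% for MVD, both genes of mevalonate pathway enzymes. The 3 genes were chosen for strong reversal by mevalonate, so their own returns are not set against these.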

How the data were processed

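Total RNA of SMS-KCNR cells was measured on 9 arrays. The authors deposited 1 table of log2 values for 53617 probesets. GCRMA and HOMER are named in the submitters' processing notes; their versions, roles and settings, and the genome build, are not given in the sources used here. GCRMA, where used, models background from probe sequence, which matters most for dim probesets. Log2 values were used as deposited. Symbols came from the platform annotation, which named 16098 probesets (30.0%), and all were matched to RefSeq; 37519 probesets had no symbol and were left out.

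The brightest probeset stood for each of 14884 genes. All 3 groups were fitted with lmFit and eBayes of limma 3.58.1 in R 4.3.3, and p-values of each of 3 comparisons were adjusted over all genes by Benjamini-Hochberg, with a threshold of 0.05. Arrays give no counts, so their number, 3 per group, limits the precision. The fit was tested on simulated data with known changes, made with independent noise and without the identical values of the real arrays. It called 70.8% of rises of 0.5 on the log2 scale, 94.2% of rises of 1 and 0.0749% of unchanged genes. Smaller changes were not simulated.

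The 3 genes and all gene lists were chosen with earlier results of these data known, and the motifs with the promoter sequences in view. Named genes were up to 4 members of each list with the largest change with simvastatin, called ones first, every called member where 5 or fewer were called, the 5 genes most alike by RMS difference, leaving out symbols of non-coding and unnamed loci, and the 5 measured neighbours on each side. Other relatives, ICAM1, CXCL8 and GLI1 were named after their values were seen. Alternatives were the mean over probesets, quantile normalization, median centring, trended robust eBayes, a fit of only the compared groups, a filter on dim genes, a replicate block, and each array left out in turn; the dimmer PTCHD1 probeset was added after seeing the data.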

Additional observations from a re-analysis of the deposited data

How the results depend on the processing

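PTCHD1, LONRF2 and TCEAL7 kept the direction of their differences between simvastatin and both other groups under all alternatives tried. The size changed for PTCHD1: its simvastatin difference was 0.88 with the mean of both probesets and 0.23 with the dimmer one, its mevalonate difference -0.99 and -0.33, and its return 143% with the dimmer one. With 1 array left out, the simvastatin differences ran from 1.49 to 1.61 for PTCHD1, 1.21 to 1.28 for LONRF2 and 0.72 to 0.78 for TCEAL7, and the sign of the PTCHD1 difference between simvastatin plus mevalonate and DMSO was not settled (-0.26 to 0.00451).

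Over all lists but markers, 4 members fell with simvastatin, against 2 with only the compared groups in the fit, 2 with the replicate block and 2 to 4 with 1 array left out. With mevalonate 1 member rose (2 with trended robust eBayes, 4 with the filter on dim genes, 1 to 2 with 1 array left out) and 13 fell (7 with only the compared groups, 8 with the block, 7 to 12 with 1 array left out). In the Patched family 1 rose with the filter on dim genes, and 0 fell with only the compared groups or the block and 0 to 1 with 1 array left out. In the TCEAL family 1 fell with trended robust eBayes and 1 with the filter on dim genes (0 to 1 with 1 array left out). Of the lists 1 member stayed higher than DMSO with mevalonate, against 4 with trended robust eBayes, 3 with the filter on dim genes, 0 with only the compared groups, 0 with the block and 0 to 1 with 1 array left out.

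Over all genes, 5 were higher with simvastatin plus mevalonate than with DMSO, against 8 with quantile normalization, 70 with trended robust eBayes, 26 with the filter on dim genes, 0 with only the compared groups, 0 with the block, and 0 to 6 with 1 array left out. The 6 lower genes became 153 with trended robust eBayes, 79 with the filter on dim genes, 0 with only the compared groups, 0 with the block and 0 to 7 with 1 array left out. The genes that rose with mevalonate numbered 791, and 516 to 712 with 1 array left out. The causes were not tested.

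Same-numbered arrays did not deviate together (r = -0.0806 to 0.0505), so no shared effect of the replicate numbers was seen. This does not tell whether the samples were paired by design. With the block 10 calls of named genes were lost (adjusted p = 0.0558 to 0.105, limma), and with only the compared groups in the fit 13 were (0.0544 to 0.104). The calls of LONRF1, ACOT9 and CCNT2 in both comparisons, and those of TCEAL1 and PTCH1 with simvastatin, were kept under every alternative tried. So were the rises of HOMER2 and LYG1 with simvastatin and the fall of HOMER1 with mevalonate. With 3 arrays per group and dim probesets, a p that misses the threshold does not show that a gene stayed at its level.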
